A study of Mus musculus with 14 samples.

Results

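The Wnt signalling and Tcf/Lef genes examined here are Wnt5b, Fzd7, Dact1, Axin2, Apc, Gsk3b, Ctnnb1, Lef1 and Tcf7, taken as the probe sets of an Affymetrix mouse expression array that name 1 of these genes and no other. Of the 9 genes, 8 had such a probe set, with 13 probe sets in all, among 10254 genes and 16602 probe sets naming 1 gene. No probe set named for Tcf7 was analysed here. The samples were 14 thymic lymphomas, each hybridised to 1 array. All mice carried p53R270H on both alleles (p53R270H/R270H) on a mixed C57BL/6-129/SvEvTac background, with 3 genotypes at HIF1a: 5 tumours were HIF1a+/+, 5 were HIF1a+/- and 4 were HIF1aKI/+. There was no tumour with wild-type p53 and no normal thymus among them, and the labels give no age or sex and do not say what the KI allele carries. The tumours were collected when the mice developed respiratory distress, and the comparison of genotypes asks which expression differences accompany differences in tumour onset and incidence. The labels call the tumours biological replicates, and the p-values measure the spread between these tumours.

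Wnt proteins are secreted ligands that bind Frizzled receptors together with Lrp5 or Lrp6 at the cell surface. Without a ligand, a destruction complex built on Axin and Apc lets the kinase Gsk3b phosphorylate beta-catenin, the product of Ctnnb1, which is then degraded. With a ligand, beta-catenin accumulates and joins the DNA-binding proteins Lef1 and Tcf7 on the promoters and enhancers of target genes. In the thymus, Tcf7 and Lef1 are needed for thymocyte development, and Tcf7 is also a Notch target in early T cell precursors.

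Tcf/Lef proteins bind a short core, here searched on both strands as CTTTG followed by AA, AT, TA or TT. The windows ran from 250 bases before to 50 bases after the transcription start sites that RefSeq gives on GRCm38.p6. The search covered 15 windows for 8 of the 9 genes, several of them overlapping windows of 1 gene, and no window of Apc. Of the windows searched for these genes, 3 held 1 match each. Among the 32851 windows of the same length that were searched for comparison, 16.9% held at least 1 match. The windows with a match are shown together with that of Axin2, a gene commonly used to read Wnt activity, which held none. Capitals mark the match, which reads as the reverse complement where it lies on the strand opposite to the one shown.
Fzd7 (chr1:59481897-59482196, plus strand): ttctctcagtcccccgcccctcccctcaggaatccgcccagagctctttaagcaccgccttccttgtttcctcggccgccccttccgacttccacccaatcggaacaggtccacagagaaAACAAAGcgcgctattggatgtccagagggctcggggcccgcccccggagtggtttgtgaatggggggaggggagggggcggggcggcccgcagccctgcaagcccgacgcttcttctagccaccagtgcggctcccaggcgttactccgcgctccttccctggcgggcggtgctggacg
Lef1, window 4 (chr3:131156044-131156343, plus strand): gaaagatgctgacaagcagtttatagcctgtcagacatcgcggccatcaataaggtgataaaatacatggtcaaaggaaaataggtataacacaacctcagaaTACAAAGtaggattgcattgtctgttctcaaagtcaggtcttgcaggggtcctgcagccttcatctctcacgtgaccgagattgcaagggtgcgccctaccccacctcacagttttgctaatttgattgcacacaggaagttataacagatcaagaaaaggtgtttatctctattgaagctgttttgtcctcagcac
Wnt5b, window 3 (chr6:119449337-119449636, minus strand): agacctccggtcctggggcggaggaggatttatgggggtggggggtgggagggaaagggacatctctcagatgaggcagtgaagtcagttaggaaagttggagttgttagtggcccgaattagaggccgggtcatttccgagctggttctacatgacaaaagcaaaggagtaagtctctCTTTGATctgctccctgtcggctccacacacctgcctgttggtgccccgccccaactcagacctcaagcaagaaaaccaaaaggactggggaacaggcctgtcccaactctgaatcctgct
Axin2 (chr11:108920099-108920398, plus strand): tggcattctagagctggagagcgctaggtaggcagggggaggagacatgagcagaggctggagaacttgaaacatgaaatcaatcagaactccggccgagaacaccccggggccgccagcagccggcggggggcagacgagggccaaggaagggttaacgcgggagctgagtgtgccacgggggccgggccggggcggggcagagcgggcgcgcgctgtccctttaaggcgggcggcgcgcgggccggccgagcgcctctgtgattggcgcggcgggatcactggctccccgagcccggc
The match began 130 bases before the start in Fzd7, as CTTTGTT on the opposite strand. In Lef1 it was CTTTGTA on the opposite strand, 147 bases before 1 of the gene's alternative starts. In Wnt5b it was CTTTGAT on the gene's own strand, 71 bases before 1 of that gene's alternative starts. Protein binding was not measured, so these are matches of letters only.

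Expression is given as log2 values of a probe set, in which a difference of 1 is a doubling of signal. Signal levels of different probe sets are not comparable, so the level of each gene in a tumour was compared with its own level in other tumours. A shared bound for background, ranks of spread, correlations and means of marker lists did span probe sets. The array medians lay between 7.91 and 8.03, and the correlations between arrays between 0.942 and 0.976. Values below 4.41, the dip between the low and the high mode of all values, were treated as background. The 12 measured T lineage genes were above it in every tumour. Cd3e, a chain of the T cell receptor complex, was between 12.05 and 13.48 and Cd8a, the CD8 co-receptor, between 13.50 and 14.18. Rag2 came closest to background, between 5.74 and 11.99. In RNA from whole tumours, fewer cells of a type and less RNA per cell cannot be told apart.

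The spread across the tumours differed between the genes. The Ctnnb1 probe set of highest mean ranged 1.48-fold from the lowest to the highest tumour, and the 2 other Ctnnb1 probe sets 1.90-fold and 9.95-fold. Lef1, Wnt5b, Gsk3b and Fzd7 ranged more widely than that first probe set, by 16-fold, 13.2-fold, 9.45-fold and 6.51-fold. Axin2 ranged 4.86-fold and Apc 2.79-fold. Dact1 was at background in 13 of 14 tumours. Measured by the SD within genotypes from the limma fit, the Ctnnb1 probe set of highest mean varied more than 2.13% of the genes above background. Wnt5b varied more than 89.8% and Lef1 more than 88.4% of them. Gsk3b stood at 80.8%, Fzd7 at 77.9%, Axin2 at 70.7% and Apc at 47.2%. The within-genotype SD was 0.13 for that Ctnnb1 probe set and 0.29 and 1.11 for the 2 others, beside 1.12 for Lef1. The plot of each gene by tumour shows the spread of its probe set of highest mean.

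**Figure D1:**
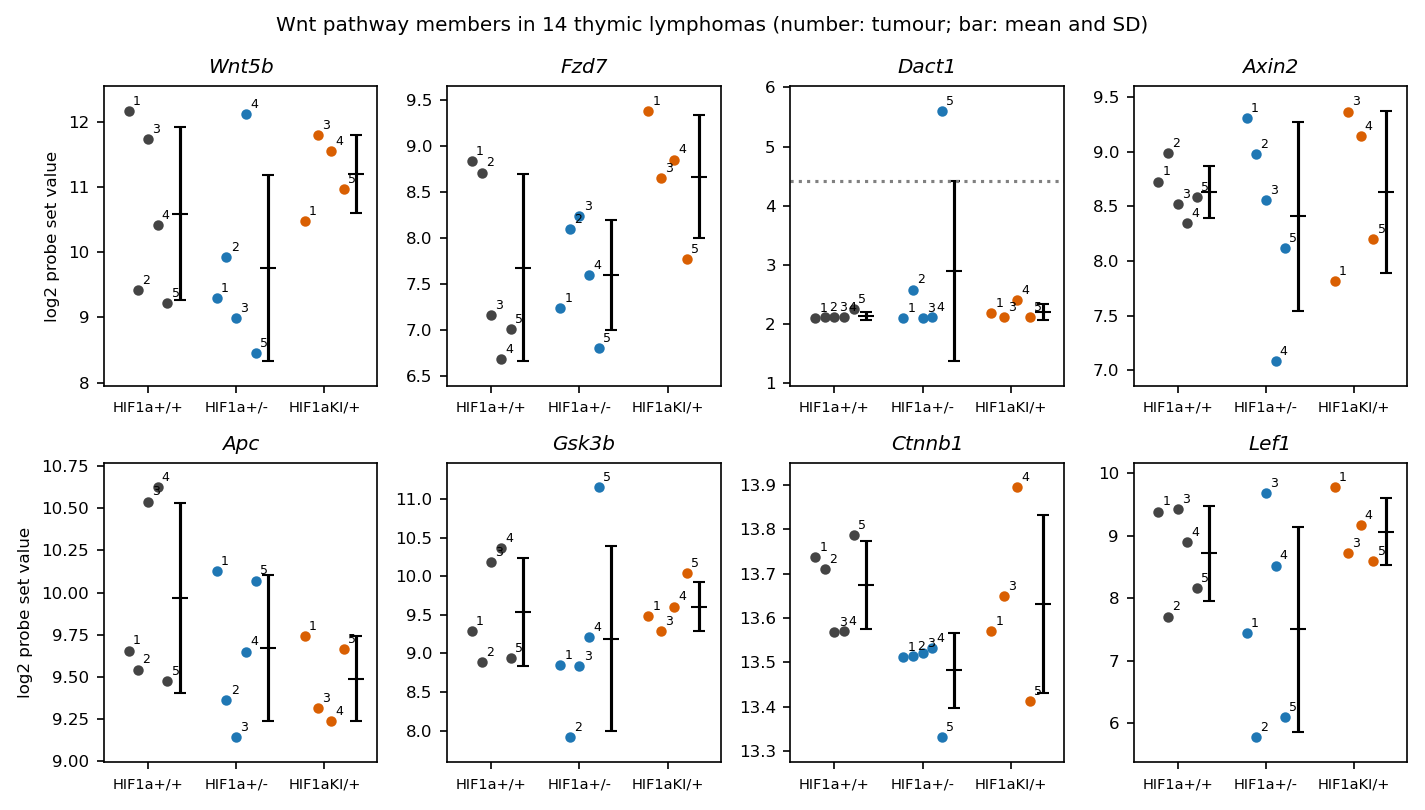
Log2 probe set value (y axes, each with its own scale) of the 8 measured genes in the HIF1a+/+ (n = 5), HIF1a+/- (n = 5) and HIF1aKI/+ (n = 4) tumours; points are tumours with their number, bars are mean and SD, and the dotted line for Dact1 is the background boundary of 4.41. The HIF1a+/- values of Ctnnb1 all lie below its HIF1a+/+ values, within a total range of 0.56, and Lef1 has its lowest values in HIF1a+/- tumours 2 and 5.

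Wnt5b encodes a ligand known mostly for signalling that does not pass through beta-catenin. Its values in HIF1a+/+ tumours 1 to 5 were 12.17, 9.42, 11.73, 10.42 and 9.22. They were 9.30, 9.93, 8.99, 12.12 and 8.45 in HIF1a+/- tumours 1 to 5, and 10.47, 11.80, 11.55 and 10.97 in HIF1aKI/+ tumours 1, 3, 4 and 5. High and low tumours occurred in the HIF1a+/+ and HIF1a+/- groups alike, the 4 HIF1aKI/+ tumours were all at 10.47 or higher, and the groups overlapped. The HIF1a+/- mean differed from the HIF1a+/+ mean by -0.84 (SE 0.74, limma adjusted p = 0.792) and from the HIF1aKI/+ mean by -1.44 (SE 0.79, unadjusted p = 0.0934, limma adjusted p = 1.0). The first of these differences was -0.44 without HIF1a+/+ tumour 1 and -1.43 without HIF1a+/- tumour 4. A second probe set for Wnt5b followed the first with r = 0.96 over the 14 tumours, although it was below background in 9 of them.

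Fzd7 encodes a Frizzled receptor. Its values were 8.84, 8.71, 7.16, 6.68 and 7.01 in HIF1a+/+ tumours 1 to 5. HIF1a+/- tumours 1 to 5 gave 7.24, 8.10, 8.24, 7.60 and 6.81, and HIF1aKI/+ tumours 1, 3, 4 and 5 gave 9.38, 8.65, 8.86 and 7.78. The HIF1aKI/+ tumours held the highest value and the highest mean, 8.67 ± 0.67 (SD, n = 4), but HIF1a+/+ tumours 1 and 2 lay among them. The HIF1aKI/+ mean was 0.99 above the HIF1a+/+ mean (SE 0.51, unadjusted p = 0.0801, limma adjusted p = 0.984) and the HIF1a+/- mean differed from the HIF1aKI/+ mean by -1.07 (SE 0.51, unadjusted p = 0.0604, limma adjusted p = 1.0). Fzd7 and the mean of the thymic epithelial markers had r = 0.75 over the 14 tumours. Single markers of that list did not all follow Fzd7 within the HIF1a+/+ group. Krt8, a keratin of thymic epithelium, read 10.68 and 9.94 in HIF1a+/+ tumours 1 and 2, where Fzd7 was high, and 3.09, 2.04 and 6.62 in tumours 3 to 5, where it was low. Of the same list, Krt5, Krt14, Krt18 and Cdh1 were each also higher in HIF1a+/+ tumours 1 and 2 than in tumours 3 to 5. Epcam, an epithelial adhesion molecule, read 8.56, 5.84, 2.32, 6.75 and 9.02 in HIF1a+/+ tumours 1 to 5, so that its highest value was in tumour 5, where Fzd7 was low. Ccl25, a thymic chemokine, and Ly75 had their lowest values of all 14 tumours in HIF1a+/+ tumour 2, 6.06 and 8.17, where Fzd7 was high. Of the 14 listed thymic epithelial markers 12 were measured, Cldn3 and Cldn4 were at background in all 14 tumours, and the list mean ranged from 3.81 to 6.80 in HIF1a+/+, from 5.29 to 7.0 in HIF1a+/- and from 6.22 to 7.37 in HIF1aKI/+ tumours. The part of these cells in the Fzd7 values was not tested.

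Dact1 encodes an intracellular protein that binds Dishevelled and can dampen Wnt signalling. It lay between 2.10 and 2.25 in the HIF1a+/+ tumours and between 2.10 and 2.39 in the HIF1aKI/+ tumours, which is background. In the HIF1a+/- group, 4 tumours lay between 2.09 and 2.57 and tumour 5 reached 5.60. That 1 tumour set the group difference of 0.76 from HIF1a+/+ (SE 0.57, limma adjusted p = 0.756), which was 0.08 without it.

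Axin2 encodes a scaffold of the destruction complex and is itself a Wnt target. Its values in HIF1a+/+ tumours 1 to 5 were 8.73, 8.99, 8.52, 8.35 and 8.58, the tightest of the 3 groups (SD 0.24, n = 5). They were 9.30, 8.98, 8.56, 7.09 and 8.12 in HIF1a+/- tumours 1 to 5 and 7.81, 9.37, 9.14 and 8.20 in HIF1aKI/+ tumours 1, 3, 4 and 5. The HIF1a+/- and HIF1aKI/+ tumours reached both above and below the HIF1a+/+ range. The group means were 8.63, 8.41 and 8.63 in HIF1a+/+, HIF1a+/- and HIF1aKI/+ tumours, and no pair differed beyond the spread between tumours (limma adjusted p = 0.941 for HIF1a+/- against HIF1a+/+, difference -0.23 with a 95% confidence interval from -1.12 to 0.66). The interval for HIF1aKI/+ against HIF1a+/+ ran from -0.95 to 0.94 around a difference of -0.0041.

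Apc encodes the large scaffold of the destruction complex and is a tumour suppressor of the intestine. Its probe set of highest mean read 9.66, 9.54, 10.54, 10.62 and 9.48 in HIF1a+/+ tumours 1 to 5. The values were 10.13, 9.37, 9.14, 9.65 and 10.07 in HIF1a+/- tumours 1 to 5, and 9.74, 9.32, 9.24 and 9.66 in HIF1aKI/+ tumours 1, 3, 4 and 5. HIF1a+/+ tumours 3 and 4 stood above all others, and the remaining values of the groups overlapped. These 2 tumours also had the lowest means of the thymic epithelial markers, 3.81 and 4.04, and over the 14 tumours Apc had r = -0.73 with that mean and -0.63 with the T lineage marker mean. The part of those cells in the Apc values was not tested. The HIF1aKI/+ mean differed from the HIF1a+/+ mean by -0.48 (SE 0.29, unadjusted p = 0.128, limma adjusted p = 0.984). A second Apc probe set followed the first with r = 0.78 and its HIF1a+/- mean differed from the HIF1a+/+ mean by -0.0037, and another was at background in all 14 tumours.

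Gsk3b encodes the kinase that marks beta-catenin for degradation, and it also acts in glycogen and insulin signalling. Its values were 9.29, 8.88, 10.18, 10.37 and 8.94 in HIF1a+/+ tumours 1 to 5. HIF1a+/- tumours 1 to 5 gave 8.85, 7.91, 8.84, 9.21 and 11.15, and HIF1aKI/+ tumours 1, 3, 4 and 5 gave 9.48, 9.29, 9.61 and 10.04. The lowest and the highest tumour of the series were both HIF1a+/- tumours, numbers 2 and 5, so the SD in that group was 1.20 (n = 5) against 0.70 (n = 5) in HIF1a+/+ and 0.32 (n = 4) in HIF1aKI/+ tumours. The HIF1a+/- mean differed from the HIF1a+/+ mean by -0.34 (SE 0.52, limma adjusted p = 0.916). The difference was -0.02 without HIF1a+/- tumour 2 and -0.83 without tumour 5. Gsk3b had r = 0.70 with the mean of the 10 endothelial markers, which ranged from 3.62 to 5.04 with 2 to 5 markers above background in a tumour, and the part of those cells was not tested. Apc and Gsk3b had the highest positive correlation over the 14 tumours among all pairs of the measured genes, r = 0.60, and 0.45 without the 2 tumours farthest from the Apc median. Apc and Fzd7 had r = -0.64, which was larger in size. After subtraction of the genotype means Apc and Gsk3b had r = 0.68, below the 0.71 of Gsk3b and Dact1. Dact1 was above background in HIF1a+/- tumour 5 alone. Before that subtraction Gsk3b and Dact1 had r = 0.55, which was 0.015 without the 2 tumours farthest from the Gsk3b median.

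Ctnnb1 encodes beta-catenin. Its probe set of highest mean read 13.74, 13.71, 13.57, 13.57 and 13.79 in HIF1a+/+ tumours 1 to 5. It read 13.51, 13.51, 13.52, 13.53 and 13.33 in HIF1a+/- tumours 1 to 5 and 13.57, 13.65, 13.89 and 13.41 in HIF1aKI/+ tumours 1, 3, 4 and 5. The HIF1a+/- values were all lower than the lowest HIF1a+/+ value, and the HIF1aKI/+ tumours spanned both groups. The difference of the means was -0.19, or 1.14-fold (SE 0.083, unadjusted p = 0.0403), and did not pass after adjustment over all genes (limma adjusted p = 0.605). All tumours of the first group lay below all of the second for 0.741% of the 10254 genes in this comparison. The 2 other probe sets of Ctnnb1 did not separate the groups: their differences were -0.20 (SE 0.18, unadjusted p = 0.291) and 0.27 (SE 0.68, unadjusted p = 0.697), the latter from a probe set with 2 tumours at background. The first and second probe sets had r = 0.70 over the 14 tumours, and the first and the third r = 0.21. Beta-catenin is regulated mainly as a protein, which the array does not measure.

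Lef1 encodes the Tcf/Lef protein named for its role in lymphoid enhancers. Its values in HIF1a+/+ tumours 1 to 5 were 9.39, 7.71, 9.43, 8.90 and 8.17. In HIF1a+/- tumours 1 to 5 they were 7.44, 5.77, 9.68, 8.52 and 6.10, and in HIF1aKI/+ tumours 1, 3, 4 and 5 they were 9.77, 8.73, 9.17 and 8.60. The 3 lowest tumours of the series, numbers 5, 2 and 1 with values of 6.10, 5.77 and 7.44, were HIF1a+/-, but HIF1a+/- tumour 3 was the second highest of all 14. The HIF1a+/- mean of 7.50 ± 1.64 (SD, n = 5) differed from the HIF1a+/+ mean of 8.72 ± 0.76 (SD, n = 5) by -1.22, or 2.32-fold (SE 0.69, unadjusted p = 0.103, limma adjusted p = 0.679). From the HIF1aKI/+ mean of 9.07 ± 0.53 (SD, n = 4) it differed by -1.56, or 2.96-fold, with a 95% confidence interval of the difference from -3.16 to 0.03 (unadjusted p = 0.0538, limma adjusted p = 1.0). The difference from HIF1a+/+ was -0.78 without HIF1a+/- tumour 2, -0.86 without tumour 5 and -1.76 without tumour 3. Between HIF1aKI/+ and HIF1a+/+ tumours Lef1 differed by 0.35 (SE 0.73, limma adjusted p = 1.0).

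None of the 8 measured genes differed between HIF1a+/- and HIF1a+/+ tumours by the limma test adjusted over all genes, where 0.0195% of the 10254 genes (2 genes) did. At an unadjusted p under 0.05 there was 1 of 8, Ctnnb1, beside 7.94% of all genes. Of the 8, 7 had a lower mean in HIF1a+/-, against 53.8% of all genes, with a median difference of -0.26 beside -0.0038 over all genes. The 2 medians are of unlike sets, since 28.5% of all genes and 1 of the 8 had a mean at background. Between HIF1aKI/+ and HIF1a+/+ tumours 0 of 8 passed after adjustment, where 0% of all genes did, and 0 of 8 passed unadjusted, where 4.35% of all genes did. In that comparison 3 of 8 were lower, beside 52.3% of all genes, with a median of 0.07. Between HIF1a+/- and HIF1aKI/+ tumours 0 of 8 passed after adjustment, where 0% of all genes did, and 0 of 8 unadjusted, where 3.06% did, although Lef1 and Fzd7 were near that bound and 6 of 8 were lower in HIF1a+/-, beside 53.1% of all genes. The moderated F test over the 3 genotypes called 0 of 8 after adjustment, where it called 0% of all genes, and 0 of 8 at an unadjusted p under 0.05, where it called 5.43%. Its smallest unadjusted p-values were 0.0955 for Ctnnb1, 0.111 for Lef1 and 0.118 for Fzd7. The HIF1a+/+ tumours enter the first 2 comparisons and the HIF1a+/- tumours the first and the third, so these are not independent. The limma 95% confidence intervals of Lef1 and Wnt5b between HIF1a+/- and HIF1a+/+ tumours ran from -2.72 to 0.29 and from -2.46 to 0.79. With this number of tumours, even several-fold lower levels of these genes in HIF1a+/- tumours were not excluded. For Ctnnb1 the interval ran from -0.37 to -0.01.

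**Figure D2:**
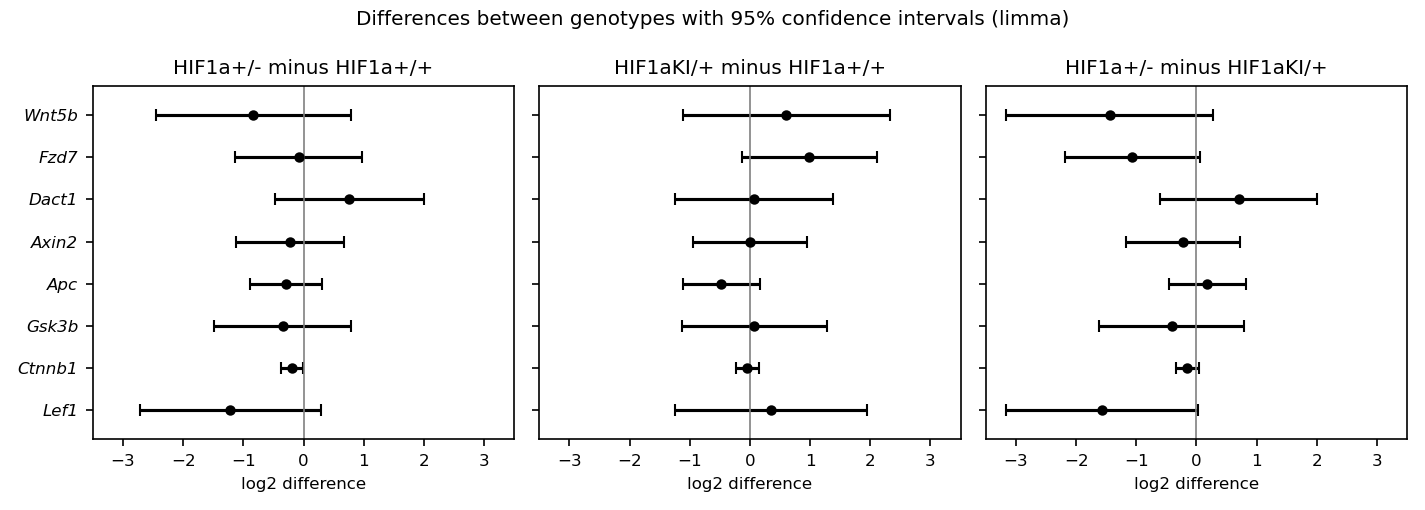
Log2 difference between genotypes (x axes) with its 95% confidence interval from limma for the 8 measured genes (y axis) in the 3 comparisons, from 5 HIF1a+/+, 5 HIF1a+/- and 4 HIF1aKI/+ tumours. The interval of Ctnnb1 between HIF1a+/- and HIF1a+/+ tumours, from -0.37 to -0.01, is the 1 interval of the 24 that leaves out 0 before adjustment.

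The rest of the pathway was followed through 7 lists of genes covering ligands, receptors, secreted modulators, the destruction complex, nuclear partners, common targets and thymocyte genes tied to Tcf7 and Lef1. Of the 123 genes, 78 were measured. Extracellular components were mostly at background: of 7 measured genes for Wnt ligands and their secretion, Wnt5b was the 1 above background in all 14 tumours and 4 were below it in all, Wnt4, Wnt5a, Wnt6 and Porcn. Among 10 receptors and co-receptors, Fzd7 and Lrp6 were above background in all 14 tumours and Fzd4, Fzd9 and Lrp5 in none. Of 7 secreted modulators none was above background in all tumours and 5 were below it in all. The intracellular components were mostly detected, with 12 of 18 destruction complex genes and 9 of 14 nuclear genes above background in every tumour, as the plot of levels by role shows. Tcf7l1, another Tcf protein, was at background in 13 tumours, and Tcf7l2 lay between 4.23 and 7.14.

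**Figure D3:**
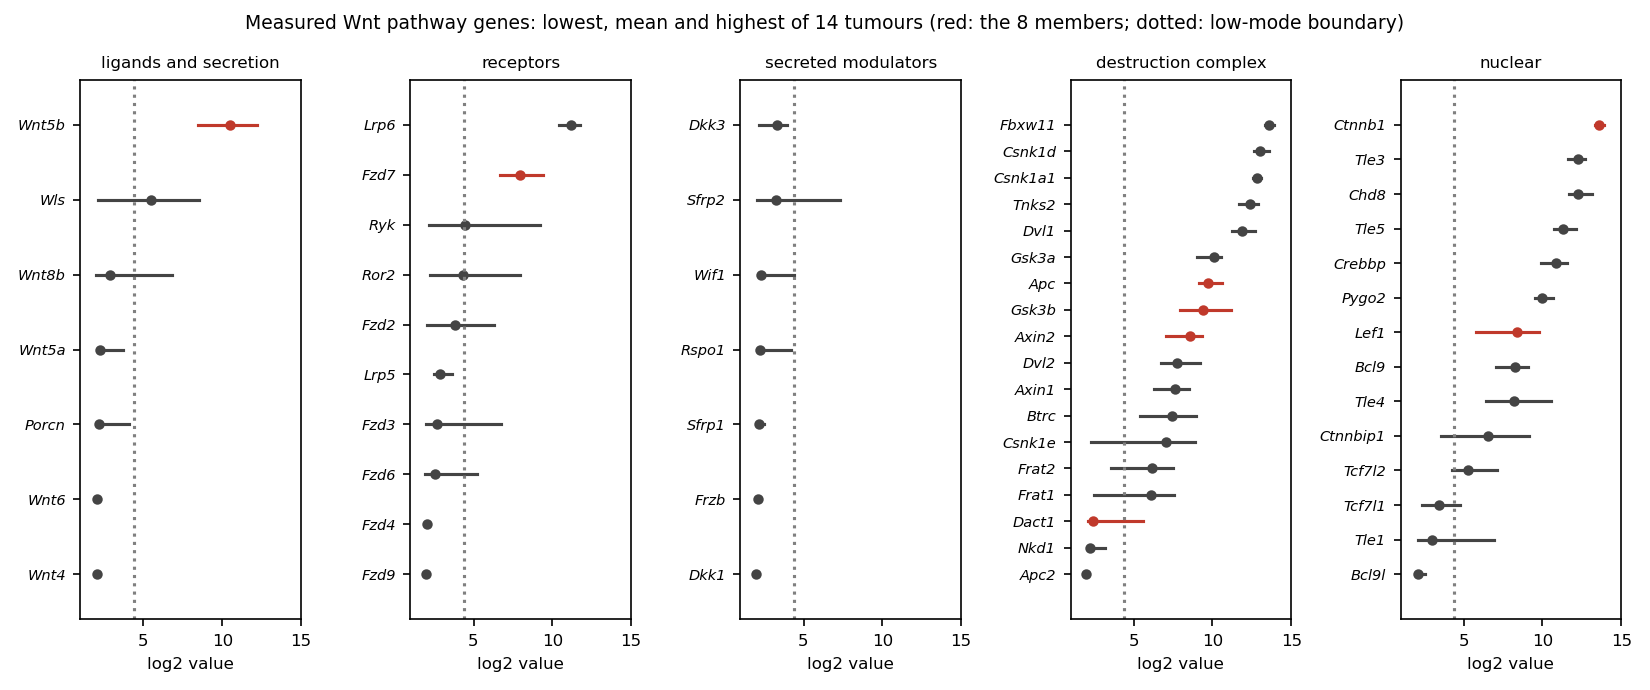
Lowest, mean (point) and highest log2 value over 14 tumours (x axes) of the measured genes in 5 pathway lists, with Wnt5b, Fzd7, Dact1, Axin2, Apc, Gsk3b, Ctnnb1 and Lef1 in red and the background boundary of 4.41 as a dotted line. Ligands, receptors and secreted modulators lie mostly left of the line and intracellular components mostly right of it; the probe sets' levels are not comparable between genes.

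None of the 78 pathway genes passed the adjusted test in any comparison. At an unadjusted p under 0.05, 3 were lower and 3 higher in HIF1a+/- than in HIF1a+/+ tumours (7.69% of the 78, beside 7.94% of all genes). In HIF1aKI/+ against HIF1a+/+ tumours 2 were lower and 3 higher (6.41%, beside 4.35%), and in HIF1a+/- against HIF1aKI/+ tumours 2 were lower and 1 higher (3.85%, beside 3.06%). These shares were near those of all genes tested. Between HIF1a+/- and HIF1a+/+ tumours 46 of the 78 had a lower mean in HIF1a+/-, beside 53.8% of all genes. Their median difference was -0.0079, beside -0.0038 over all genes.

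Among the secreted modulators, Sfrp2, a decoy that binds Wnt ligands, had the smallest p. It read 2.72, 7.33, 6.44, 2.73 and 5.17 in HIF1a+/+ tumours 1 to 5, and was at background in every HIF1a+/- and HIF1aKI/+ tumour. The differences were -2.63 (unadjusted p = 0.00684, limma adjusted p = 0.477) and -2.37 (unadjusted p = 0.0168, limma adjusted p = 0.984), and since 2 HIF1a+/+ tumours were also at background they rest on the other 3. Sfrp2 is a product of mesenchymal cells in many tissues. Of 12 measured fibroblast and matrix markers, 11 had a lower mean in HIF1a+/- than in HIF1a+/+ tumours, beside 53.8% of all genes. At a limma unadjusted p under 0.05, 7 of the 12 were lower (58.3%, beside 7.94% of all genes in either direction). The adjusted test was passed by 0 of the 12, beside 0.0195% of all genes. The median difference of these markers was -1.35. Their mean ranged from 8.30 to 9.89 in HIF1a+/+, from 7.40 to 8.59 in HIF1a+/- and from 7.81 to 9.06 in HIF1aKI/+ tumours. Lum was at background in all 14 tumours and Col1a1 was between 11.33 and 13.41. Within the HIF1a+/+ group their mean was lowest in tumour 3, where Sfrp2 read 6.44, and it was 9.55 in tumour 1, where Sfrp2 was at background. Single markers of that list differed. Dcn read 7.81, 10.96, 9.90, 7.33 and 9.90 in HIF1a+/+ tumours 1 to 5, and Pdgfra 7.25, 8.99, 8.76, 6.54 and 8.19. Both were higher in tumours 2, 3 and 5, as Sfrp2 was. Col1a1, Col1a2, Col3a1, Col5a1, Col6a1, Pdgfrb, Fn1, Loxl1 and Postn were instead lowest of the HIF1a+/+ group in tumour 3. The mean of the adipocyte markers, with 5 of 8 measured, was 7.68, 9.34 and 8.30 in HIF1a+/+ tumours 2, 3 and 5, where Sfrp2 was above background, and 5.16 and 4.64 in tumours 1 and 4, where it was not. It ranged from 4.61 to 5.74 in HIF1a+/- and from 4.77 to 6.26 in HIF1aKI/+ tumours, and Adipoq, a defining adipocyte gene, was above background in HIF1a+/+ tumour 3 alone, at 6.57. The part of fibroblasts and adipocytes in the Sfrp2 values was not tested.

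In the destruction complex list, Dvl2, 1 of the Dishevelled proteins that relay the signal from Frizzled, was higher in HIF1a+/- tumours by 0.94 (unadjusted p = 0.0156, limma adjusted p = 0.526). Its values were 7.31, 6.72, 7.09, 7.09 and 7.58 in HIF1a+/+ tumours and 8.12, 7.82, 7.87, 8.08 and 8.60 in HIF1a+/- tumours, with no overlap, where 1.47% of all genes did not overlap in either direction. In HIF1aKI/+ tumours Dvl2 differed from HIF1a+/+ by 0.80 (limma adjusted p = 0.984), and the groups overlapped. Btrc, the F-box protein that recognises phosphorylated beta-catenin, was 1.57 higher in HIF1a+/- than in HIF1aKI/+ tumours (unadjusted p = 0.0337, limma adjusted p = 1.0). Among nuclear partners, Tle5, a short relative of the Groucho co-repressors, was 0.68 higher in HIF1a+/- than in HIF1a+/+ tumours (unadjusted p = 0.00996, limma adjusted p = 0.514).

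Of the common Wnt targets, Ccnd1, which encodes cyclin D1, differed most in p. It read 7.90, 8.24, 6.84, 6.79 and 11.36 in HIF1a+/+ tumours 1 to 5 and 10.61, 11.99, 12.03 and 10.60 in HIF1aKI/+ tumours 1, 3, 4 and 5. Only HIF1a+/+ tumour 5 lay within the HIF1aKI/+ range, and the difference was 3.08 (SE 1.06, unadjusted p = 0.0137, limma adjusted p = 0.984). HIF1a+/- tumours, between 6.13 and 11.16, differed from HIF1aKI/+ tumours by -2.58 (unadjusted p = 0.0324, limma adjusted p = 1.0). Axin2 did not show this pattern, with HIF1aKI/+ and HIF1a+/+ means 0.0041 apart.

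Among the thymocyte genes, Il2ra, the interleukin-2 receptor chain of early thymocytes, read 6.90, 8.26, 11.42, 9.93 and 2.14 in HIF1a+/+ tumours 1 to 5. It was at background in all 4 HIF1aKI/+ tumours and in all HIF1a+/- tumours but tumour 1, at 6.29. The differences from HIF1a+/+ were -5.32 in HIF1aKI/+ (unadjusted p = 0.00525, limma adjusted p = 0.984) and -4.37 in HIF1a+/- tumours (unadjusted p = 0.0118, limma adjusted p = 0.517). Bcl2l1, which encodes the survival protein Bcl-xL, was 0.93 higher in HIF1a+/- (unadjusted p = 0.0104, limma adjusted p = 0.514) and 0.79 higher in HIF1aKI/+ tumours (unadjusted p = 0.0319, limma adjusted p = 0.984). Lef1 differed in the opposite direction from Bcl2l1 in HIF1a+/- and in the same direction in HIF1aKI/+ tumours, neither past the test.

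The genes whose pattern over the 14 tumours was most like that of Lef1, among 7333 genes above background, were Notch1 (r = 0.88), Dtx1 (r = 0.87) and Pold1 (r = 0.86). Notch1 is the receptor that commits precursors to the T lineage, Dtx1 is a Notch target that encodes a ubiquitin ligase, and Pold1 is the catalytic subunit of DNA polymerase delta. Notch1 read 11.40 and 12.59 in HIF1a+/- tumours 2 and 5, where Lef1 was lowest, 12.98 in HIF1a+/- tumour 1, and between 13.40 and 14.54 in the other 11. Dtx1 was at background in the same HIF1a+/- tumours 2 and 5, at 2.62 and 1.90, and between 8.37 and 12.76 elsewhere. Without those 2 tumours, the farthest from the Lef1 median, r was 0.66 for Notch1, 0.47 for Dtx1 and 0.71 for Pold1, so a large part of the likeness rests on them. After subtraction of the genotype means r was 0.86 for Notch1 and for Dtx1 and 0.80 for Pold1. These are ranks among genes measured in the same tumours, with no test. The T lineage marker mean, with 12 of 14 markers measured and none at background in any tumour, had r = 0.04 with Lef1, and it was 12.28 and 12.46 in HIF1a+/- tumours 2 and 5, within the HIF1a+/+ range from 11.59 to 12.97. Ptcra, the pre-T cell receptor chain and a gene of that list, was 9.78, 9.52 and 8.61 in HIF1a+/- tumours 1, 2 and 5, where Lef1 was lowest, and 11.64 or higher in the other 11.

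**Figure D4:**
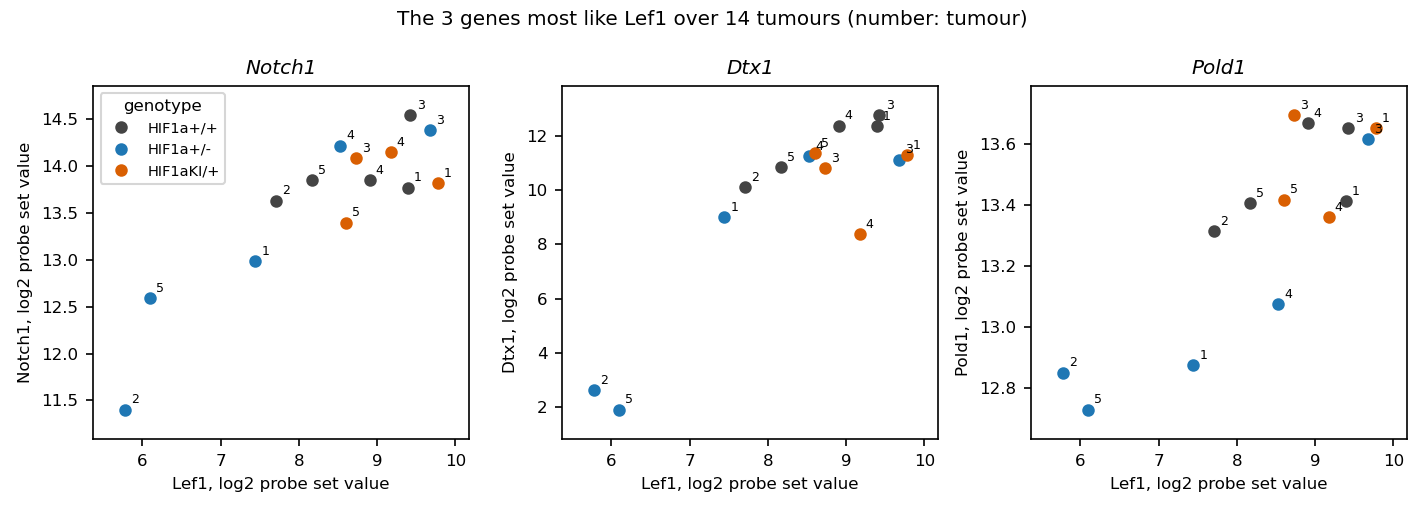
Log2 values of Notch1, Dtx1 and Pold1 (y axes) against Lef1 (x axes) in 14 tumours, coloured by genotype and numbered by tumour. HIF1a+/- tumours 2 and 5 lie at the low left of each panel, and for Pold1 HIF1a+/- tumour 1 (12.88) is close to them (12.85 and 12.73).

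Axin2 and Lef1, which both count among common Wnt targets, did not vary together (r = -0.16 over 14 tumours). The 3 genes most like Axin2 were Lamb2 (r = 0.76), a laminin chain, Acvr1b (r = 0.74), an activin receptor, and Selenbp1 (r = 0.74). For Fzd7 they were Calcb (r = 0.86), Csn2 (r = 0.85) and Strbp (r = 0.85). Calcb and Csn2 were at background in HIF1a+/+ tumours 3, 4 and 5 and in HIF1a+/- tumour 5, where Fzd7 lay between 6.68 and 7.16. Calcb was also at background in HIF1a+/- tumour 1, where Fzd7 was 7.24, and Csn2 in HIF1aKI/+ tumour 5, where Fzd7 was 7.78. For Ctnnb1 they were Abca1 (r = 0.86), a cholesterol transporter, Tra2a (r = 0.81), a splicing factor, and Glce (r = 0.81). The 3 genes most like Dact1 (r = 0.85 to 0.88) were all highest in HIF1a+/- tumour 5, and without the 2 farthest tumours r ran from 0.05 to 0.64.

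For some genes the most alike genes shared a chromosome, a pattern chosen for description after seeing the data. Gsk3b, on chromosome 16, was most like Top3b (r = 0.91) and Hira (r = 0.90), both also on chromosome 16, and Kif1c (r = 0.89), on chromosome 11. Of the 50 genes most like Gsk3b, 21 (42%) were on chromosome 16, which holds 3.31% of the genes searched. Wnt5b, on chromosome 6, was most like Cryz (r = 0.91), on chromosome 3, and Bcl2l13 (r = 0.90) and Calu (r = 0.89), both on chromosome 6. Of its 50 most alike genes 19 (38%) were on chromosome 6, which holds 5.33% of those searched. For Ctnnb1, on chromosome 9, the count was 12 (24%, beside 5.56%). After subtraction of the genotype means it was 17 for Gsk3b, 17 for Wnt5b and 7 (14%) for Ctnnb1. Without that subtraction it was 3 (6%, beside 2.45%) for Apc on chromosome 18, and 6 (12%) with it. For the other genes, without subtraction, it was 3 (6%, beside 4.99%) for Lef1 on chromosome 3, 3 (6%, beside 5.51%) for Fzd7 on chromosome 1, 1 (2%, beside 8.75%) for Axin2 on chromosome 11 and 0 (0%, beside 3.37%) for Dact1 on chromosome 12. The 3 genes most like Apc, Map3k11 (r = 0.91), Dpp3 (r = 0.91) and Mta2 (r = 0.88), were all on chromosome 19, which does not hold Apc. Those most like Dact1, Sqstm1, Bcas3 and Ahsa2, were all on chromosome 11, which does not hold Dact1. Dact1 was above background in HIF1a+/- tumour 5 alone.

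The level of a whole chromosome in a tumour was described by the median deviation of its other genes above background from their own means. On chromosome 16, over 243 genes, this median was highest in HIF1a+/- tumour 5 (0.33), HIF1aKI/+ tumour 5 (0.29) and HIF1a+/+ tumour 4 (0.26), and lowest in HIF1a+/- tumours 1 (-0.39), 2 (-0.28) and 3 (-0.23). Gsk3b was highest in HIF1a+/- tumour 5 and lowest in HIF1a+/- tumour 2, and its r with the chromosome median was 0.84 over 14 tumours and 0.83 without the 2 farthest. On chromosome 6, over 391 other genes, the median was highest in HIF1a+/+ tumour 1 (0.24), HIF1aKI/+ tumour 3 (0.24), HIF1a+/- tumour 4 (0.16) and HIF1aKI/+ tumour 4 (0.13), all with Wnt5b at 11.55 or higher. For Wnt5b r was 0.87, and 0.84 without the 2 farthest. Of the other chromosome 6 genes 100% had a lower r, and of the other chromosome 16 genes 96.3% had a lower r than Gsk3b. For Ctnnb1 r was 0.51 and dropped to 0.11 without the 2 farthest tumours, for Apc it was 0.60 (0.52 without the 2 farthest), for Fzd7 0.55 (0.72) and for Lef1 0.27 (0.49). For Axin2 and Dact1 it was -0.17 and -0.40. The chromosome medians spanned 0.38 on chromosome 6 and 0.72 on chromosome 16, less than the ranges of 3.72 for Wnt5b and 3.24 for Gsk3b. Across chromosomes 1 to 19 the spans ran from 0.30 on chromosome 2 to 0.82 on chromosome 10. Only chromosome 2 spanned less than chromosome 6. DNA copy number was not measured here, and its part in these levels was not tested.

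**Figure D5:**
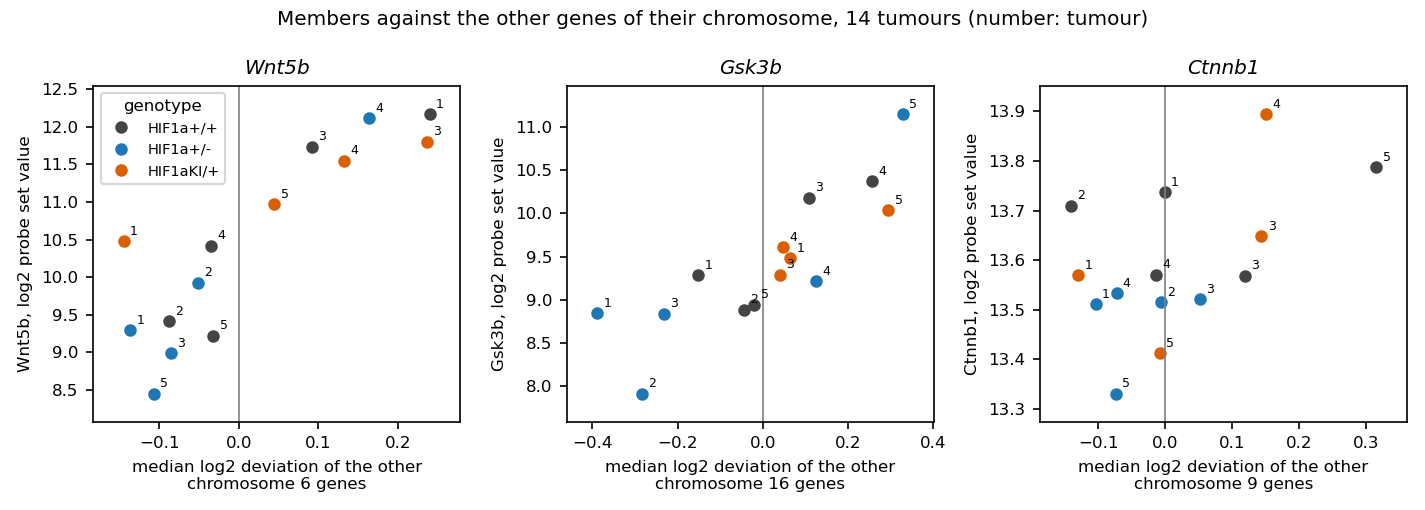
Log2 value of Wnt5b, Gsk3b and Ctnnb1 (y axes) against the median log2 deviation of the other genes of chromosomes 6, 16 and 9 (x axes) in 14 tumours, coloured by genotype and numbered by tumour. Wnt5b and Gsk3b are higher in tumours where their chromosome's genes are higher (r = 0.87 and 0.84), and Ctnnb1 shows this less (r = 0.51).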

How the data were processed

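Total RNA from 14 thymic lymphomas was labelled with biotin after linear amplification, per the labels' protocols, and hybridised to 1 array each. The authors deposited 1 log2 value for each probe set and array. The submitters' processing notes name GCRMA and Partek without versions; that the scale is log2 was read from the values, which run from 1.79 to 15.6. GCRMA corrects probes for background by their sequence, normalizes the arrays and summarises probe sets, so values near the low mode carry little information on expression. A genome build was not given in the sources used here. Scanner files were not used here.

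Of 18264 probe sets, 16602 named 1 gene in GEO's platform annotation, 603 named several and were left out, and 1059 named none. Symbols were checked through the RefSeq gene table of GRCm38.p6, which changed 0 of them. For each of 10254 genes the probe set of highest mean was kept, and all 3 genotypes were fitted together with limma 3.58.1 in R 4.3.3 (lmFit and eBayes, two-sided, no covariate), with p-values adjusted by Benjamini-Hochberg over all genes and a threshold of 0.05. Every probe set of the Wnt genes was also fitted singly, with adjustment over the 16602. The fit was first run on simulated data whose changes were known. The number of arrays limits the precision.

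The genes, gene lists, tests and alternatives were chosen with earlier results of these data known. Named genes were the 9 Wnt genes, up to 4 genes of each pathway list with the smallest unadjusted p of the F test, the 3 genes with the highest Pearson correlation with each Wnt gene over the 14 tumours, and fixed cell type markers, and not every gene that qualified is described. Promoter sequences are RefSeq's for GRCm38.p6. The alternatives were a filter on level, quantile normalization, centring, a trended and a robust variance prior, weights for arrays, fitting each pair of genotypes alone, other choices of probe set, a replicate block, other thresholds and leaving out each array.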

Additional observations from a re-analysis of the deposited data

Results flagged for a closer look

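In 39 sets of values, each the tumours of 1 genotype at 1 probe set of the Wnt genes, the highest or lowest tumour was set against the spread of the others. In 4 of the 39 a tumour stood apart by Dixon's criterion, where about 1 in 20 (1.95 sets) would by chance. Ctnnb1 in HIF1a+/- tumour 5 was 13.33, below the other 4 tumours at 13.51 to 13.53, so the HIF1a+/- value farthest from the HIF1a+/+ tumours came from this tumour. Dact1 in HIF1a+/- tumour 5 was 5.60, the 1 value of this gene above background, with the other 4 tumours between 2.09 and 2.57. A pair of flags concerned values at background: Dact1 in HIF1a+/+ tumour 5 at 2.25, beside 2.10 to 2.11 in the others, and the third Apc probe set in HIF1a+/+ tumour 4 at 3.32, beside 2.19 to 2.25.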

How the results depend on the processing

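No alternative brought any of the 24 differences of the Wnt genes past an adjusted p of 0.05: of 549 refitted differences under 23 other settings 0 passed, 527 kept their sign and 22 did not. The sign held under all settings run for 16 of the 24 differences, among them those of Lef1 and Wnt5b in all 3 comparisons and of Ctnnb1 between HIF1a+/- and HIF1a+/+ tumours. With array weights the Axin2 difference between HIF1aKI/+ and HIF1a+/+ was 0.071, that of Gsk3b was -0.17, and Fzd7 between HIF1a+/- and HIF1a+/+ was 0.23. With the mean of all probe sets Ctnnb1 differed by 0.0090 between HIF1a+/- and HIF1aKI/+. Leaving out 1 tumour at a time turned the sign in these ranges: between HIF1aKI/+ and HIF1a+/+, Axin2 -0.25 to 0.27, Gsk3b -0.091 to 0.28, Ctnnb1 -0.13 to 0.030 and Dact1 -0.0055 to 0.091; between HIF1a+/- and HIF1a+/+, Axin2 -0.45 to 0.10 and Fzd7 -0.33 to 0.21; between HIF1a+/- and HIF1aKI/+, Axin2 -0.49 to 0.11. The cause was not tested.

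At a limma unadjusted p under 0.05 the count was 1 of 8 Wnt genes between HIF1a+/- and HIF1a+/+, beside 7.94% of all genes. Of the 78 pathway genes, 6 passed between HIF1a+/- and HIF1a+/+ (7.69%, beside 7.94% of all genes). Between HIF1aKI/+ and HIF1a+/+ 5 passed (6.41%, beside 4.35%), and between HIF1a+/- and HIF1aKI/+ 3 passed (3.85%, beside 3.06%). The filter on level leaves out Dact1, and the F test was not run for fits of only 2 groups. Same-numbered tumours did not resemble each other: the mean correlation of their deviations was -0.00057 over 13 pairs (-0.12 to 0.14), and 1 of 14 arrays correlated best with its own number. With the replicate block, Axin2 between HIF1aKI/+ and HIF1a+/+ was 0.11 and Gsk3b -0.17, and 0 Wnt genes were called in any comparison.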
